A study of Homo sapiens with 4 samples.

Results

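The BCL2 family decides whether a stressed cell opens the outer membrane of its mitochondria and dies, and 10 of its genes were followed here in leukaemia cells kept without glucose. The members were the table entries whose symbol is BCL2, BCL2L1, MCL1, BCL2L11, BBC3, PMAIP1, HRK, BMF, BID or BAX, which makes 10 of the 60609 gene identifiers in the table, and each had a single entry. They were chosen by name as 3 guardians, 6 BH3-only genes and 1 effector. The cells were CCRF-CEM, an established human T cell leukaemia line, in a derivative called CCRF-CEM/HA-AMPKa2, so that every sample carries AMPK alpha 2 with an HA tag. The group Ctrl was kept in control medium and the group No glucose in medium lacking glucose, each for 24 hours, with 2 total RNA libraries per group. The labels name a single derivative line and no cell line without the tagged subunit. They do not name separate cultures, and the p-values then reflect just the scatter among these 4 libraries, part of which may be technical.

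Reads assigned to genes numbered 96698709 in CTRL_7, 24513840 in CTRL_8, 19035535 in ONG_9 and 20081266 in ONG_10, the last pair being the No glucose libraries. Chi-square per degree of freedom, the variance between a pair of libraries over that of counting, was 1.93 for Ctrl (16683 genes) and 6.54 for No glucose (13987 genes). It depends on read depth and on the genes included, which differed between the pairs. PRKAA2, the gene of the tagged subunit, was at 409 normalized counts in each Ctrl library and at 670 and 662 without glucose. Endogenous and introduced copies cannot be told apart in these counts. All 12 T-lineage markers checked were present at a mean of at least 1 normalized count, with summed levels of 69093 to 70597 in Ctrl and 68022 to 69776 without glucose. Within that sum CD3E rose 1.45-fold (limma adjusted p = 1.2e-05), CD3G fell 1.37-fold (3.5e-05), CD7 fell 1.79-fold (0.0077, at 270 and 523 in the No glucose libraries) and the other 9 did not pass. B cell markers summed to 894 to 907 in Ctrl and 523 to 536 without glucose, with CD79A making most of it, and myeloid markers to at most 40.7 in any library. Erythroid markers summed to at most 7.02, with HBB and HBG1 at 0 in all 4 libraries. The adherent cell markers summed to 15568 to 15998 in Ctrl and 19481 to 20620 without glucose, nearly all of it VIM, which lymphoid cells also express and which was called higher. Of the other 4, COL1A1 rose from a mean of 2.37 to 16.4 normalized counts (limma adjusted p = 0.015), EPCAM fell from 508 to 403 (limma adjusted p = 0.020), KRT8 did not pass and COL1A2 was at or near 0. The part of these shifts in the results below was not tested.

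Guardians such as BCL2, BCL-XL (from BCL2L1) and MCL1 hold the pore-forming effectors BAX and BAK in check. BH3-only proteins are the sensors: each is induced, released or cleaved by a particular stress, and each inserts its short BH3 helix into a groove of the guardians, or of the effectors directly. Once guardians are occupied, effectors assemble in the mitochondrial outer membrane, cytochrome c escapes and caspases follow. In T cells the balance among BCL2, MCL1 and BIM (from BCL2L11) is known to set survival, and glucose withdrawal is a known trigger of this route. The proteins are also controlled by turnover, phosphorylation and cleavage, none of which RNA levels show.

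The members share the segment that encodes the BH3 core, and it is printed here because this helix is what lets the 3 classes bind one another. A leucine codon, 3 codons of any kind, a glycine or alanine codon and an aspartate codon were searched for in frame in the principal GENCODE 29 transcript of each member. Exactly 1 match was found in each of the 10 members. The pattern is that of the known BH3 core, so a match in each member is no test. At least 1 match is held by 24.5% of 19887 protein-coding genes, whose coding lengths differ. The following 27 coding bases run 5′ to 3′ on the gene's strand, with the leucine codon and the glycine or alanine and aspartate codons in capitals.
BCL2: CTCcgccaggccGGCGACgacttctcc
BCL2L1: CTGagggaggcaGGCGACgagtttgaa
MCL1: TTAcgacgggttGGGGATggcgtgcag
BCL2L11: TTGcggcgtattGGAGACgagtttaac
BBC3: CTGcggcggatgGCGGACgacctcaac
PMAIP1: CTCaggagatttGGAGACaaactgaac
HRK: CTCaaggcgctaGGCGACgagctgcac
BMF: CTTcagtgcattGCAGACcagttccac
BID: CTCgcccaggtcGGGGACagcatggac
BAX: CTCaagcgcatcGGGGACgaactggac
A glycine codon fills the fifth place in 8 members and an alanine codon in the other two, BBC3 and BMF. Any 2 of these stretches have 10 to 19 of the 27 bases in common, with a median of 15 over 45 pairs. These counts include bases that the search itself fixed. On GRCh38 the HRK stretch lies at chr12:116881173-116881199 on the minus strand, in exon 1 of 2, and the BID stretch at chr22:17739418-17739444 on the minus strand, in exon 4 of 6. The BAX stretch lies at chr19:48955787-48955813 on the plus strand, in exon 3 of 6, and all 3 are coding sequence.

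Among the guardians, MCL1 rose while BCL2 and BCL2L1 fell, each by at most 1.32-fold. MCL1, a short-lived guardian with quick turnover of its protein, had 7538 and 7576 normalized counts in the Ctrl libraries CTRL_7 and CTRL_8 against 9467 (ONG_9) and 9049 (ONG_10) without glucose. Both No glucose libraries thus lay above both controls. The mean went from 7557 ± 26.8 to 9258 ± 296 (SD, n = 2), a log2 fold change of 0.29 ± 0.05 (SE, limma adjusted p = 8.5e-04 after Benjamini-Hochberg adjustment over all genes tested).

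BCL2, the founding guardian and a long-lived protein, had 2247 and 2262 normalized counts in Ctrl and 1927 and 1904 without glucose. Its groups did not overlap, and the log2 fold change was -0.23 ± 0.06 (SE, limma adjusted p = 0.0099). BCL2L1, whose main product BCL-XL guards mitochondria in many tissues, had 1304 and 1260 in Ctrl and 913 and 1034 without glucose. That is a log2 fold change of -0.40 ± 0.08 (SE, limma adjusted p = 0.0020), again without overlap. Exons of the antisense gene ABALON cover 43.0% of the exon bases of BCL2L1. ABALON itself was at 48.4, 53.5, 37.9 and 57.5 normalized counts in the libraries in the order above, and the counting strand is not given in the sources used here.

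Calls of the guardians were lost in some settings, while leaving out a Ctrl library moved their log2 fold changes little. Without CTRL_7 the limma adjusted p was 0.19 for BCL2, 0.091 for BCL2L1 and 0.11 for MCL1, with log2 fold changes of -0.24, -0.37 and 0.29. Without CTRL_8 it was 0.23 for BCL2 (log2 fold change -0.23) and 0.085 for MCL1 (0.30), and BCL2L1 was still called (-0.42, adjusted p = 0.033). With libraries scaled to equal totals the median log2 fold change of all genes moved from 0.04 to 0.24, and the value for BCL2 became -0.02 (adjusted p = 0.74) and for BCL2L1 -0.19 (0.11), while MCL1 was still called, at 0.50 (2.9e-05).

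**Figure D1:**
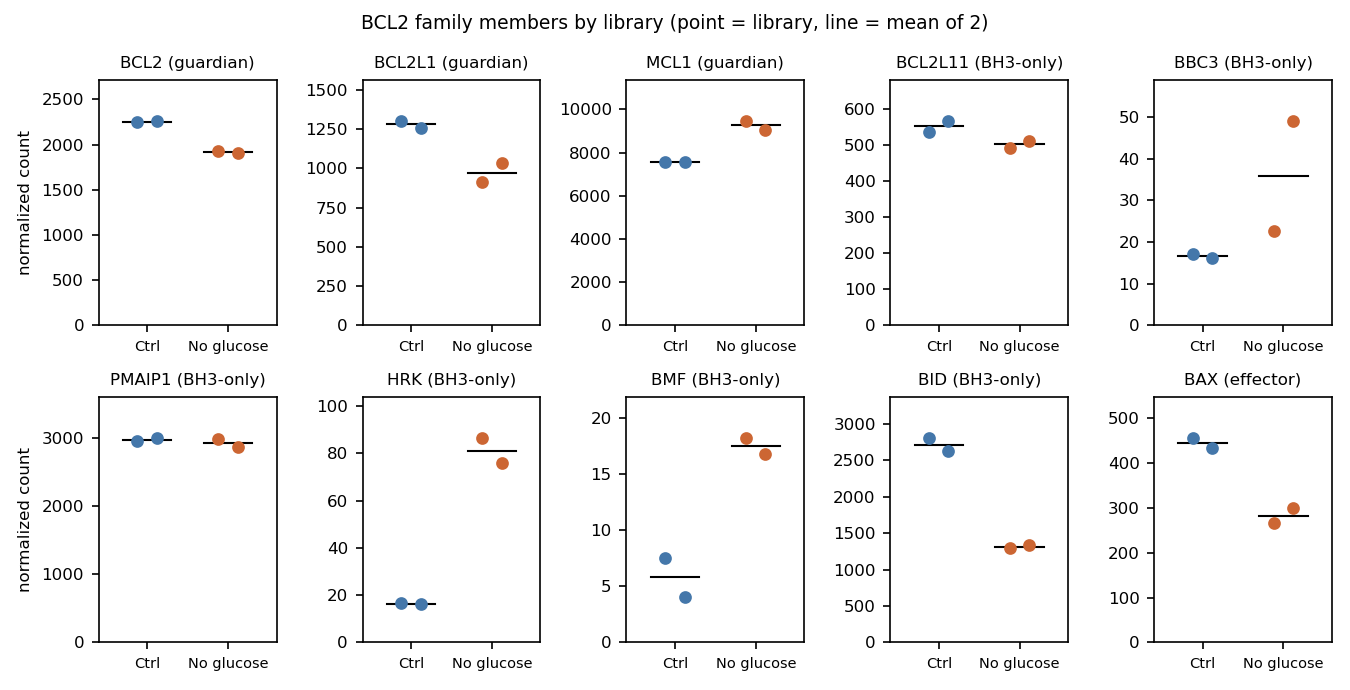
Normalized counts of the 10 members on the vertical axis, 1 panel per gene starting at 0, for Ctrl and No glucose. Each point is a library and each line the mean of 2. HRK, BMF and BBC3 are higher in both No glucose libraries and BID and BAX lower, while PMAIP1 overlaps.

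The BH3-only genes split. HRK and BMF rose, BID fell, and BBC3, BCL2L11 and PMAIP1 did not pass the test. HRK, the gene of Harakiri, a BH3-only protein known mainly from neurons and blood progenitors deprived of growth factors, changed most. It had 16.5 and 16.1 normalized counts in Ctrl and 86.4 and 75.8 without glucose, so the lowest No glucose library stood far above both controls. The mean went from 16.3 ± 0.308 to 81.1 ± 7.53 (SD, n = 2), a log2 fold change of 2.25 ± 0.23 (SE, limma adjusted p = 1.7e-05). HRK counts rest on 48, 12, 57 and 54 reads, and the pooled reads give a ratio of 4.93 with an exact 95% interval of 3.57 to 6.87 that covers counting error only. Of the genes with a mean of at least 10 normalized counts, 99.4% had a lower log2 fold change than HRK. The change passed the threshold in all 10 alternative settings run, with adjusted p from 1.2e-06 to 0.0051.

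The 250 bases before the RefSeq start of HRK, chr12:116881442-116881691 on the minus strand of GRCh38.p14, are shown because HRK had the largest change of the 10. Capitals mark the only match to TGATGNAA, the letters of the composite element known to be read by ATF4 and CHOP, on either strand.
HRK promoter: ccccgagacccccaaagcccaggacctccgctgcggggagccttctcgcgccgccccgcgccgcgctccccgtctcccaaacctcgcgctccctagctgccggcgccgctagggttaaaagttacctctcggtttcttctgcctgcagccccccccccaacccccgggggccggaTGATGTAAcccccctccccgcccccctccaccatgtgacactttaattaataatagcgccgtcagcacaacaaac
The match begins 75 bases before the start, and 3.14% of the 35116 promoter windows of this length hold at least 1. Several patterns were searched in 15 windows of the members, and this is the only one of them that the HRK window holds. That share is thus no test. A match is a string of letters and says nothing about binding in these cells.

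BMF, whose protein is held on myosin motors until cells detach or are stressed, was the least abundant member. It had 7.56 and 4.01 normalized counts in Ctrl and 18.2 and 16.8 without glucose, from 22, 3, 12 and 12 reads. The groups did not overlap, and the log2 fold change was 1.50 ± 0.43 (SE, limma adjusted p = 0.019), against 1.32 with edgeR on the recovered reads. The ratio of pooled reads was 2.56, with an exact 95% interval of 1.40 to 4.67 for counting error. The call of BMF was lost without CTRL_8 (log2 fold change 1.11, adjusted p = 0.17), without ONG_10 (1.55, 0.099) and with DESeq2 on the recovered reads (1.51, 0.17).

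BBC3, the gene of PUMA, a BH3-only protein able to bind every guardian and a classic p53 target, had 17.2 and 16.1 normalized counts in Ctrl. Its No glucose libraries were at 22.7 and 49.1, a 2.16-fold gap between replicates, against at most 1.14-fold for the other 9 members in that group. The counting intervals of these 2 libraries were 12.7 to 37.5 and 34.2 to 68.3 normalized counts (95%, exact Poisson, from 15 and 35 reads). Both lay above both controls, yet the log2 fold change of 0.97 ± 0.36 (SE) had a limma adjusted p of 0.060 and a 95% interval of 0.17 to 1.77. BBC3 passed with edgeR on the recovered reads (adjusted p = 0.027), with library totals (0.049) and without ONG_9 (1.51, adjusted p = 0.0016), and its log2 fold change was 0.43 (0.33) without ONG_10.

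BID and the 2 remaining BH3-only genes were abundant, and among them BID alone passed the test. BID, which links death receptors to mitochondria once caspase-8 cleaves it, had 2807 and 2628 normalized counts in Ctrl and 1295 and 1339 without glucose. The mean fell from 2718 ± 127 to 1317 ± 30.9 (SD, n = 2), 2.06-fold, and the log2 fold change was -1.04 ± 0.07 (SE, limma adjusted p = 4.1e-07). Of genes with a mean of at least 10, 5.88% had a lower log2 fold change than BID. Its change was called in all 10 alternative settings, with log2 fold changes from -1.09 to -0.83.

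PMAIP1 encodes NOXA, which pairs above all with MCL1 and hastens its destruction, and its transcript is known to be induced by p53 and by ATF4. It had 2950 and 2995 normalized counts in Ctrl and 2988 and 2867 without glucose, the only member whose groups overlapped. The log2 fold change was -0.02 ± 0.06 (SE, limma adjusted p = 0.81), with a 95% interval of -0.15 to 0.11. Scaling to library totals turned it to 0.19 (adjusted p = 0.014), close to the shift of 0.20 that this scaling gives the median of all genes.

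BCL2L11, the gene of BIM, needed for the death of many lymphocytes and a known FOXO target, had 537 and 567 normalized counts in Ctrl and 493 and 511 without glucose. Both No glucose values lay below both controls, but the log2 fold change of -0.14 ± 0.09 (SE) did not pass (limma adjusted p = 0.25, 95% interval -0.32 to 0.05), and it was 0.07 with library totals. Exons of MIR4435-2HG on the opposite strand cover 10.9% of its exon bases, and that gene was at 236 and 254 in Ctrl and 158 and 185 without glucose. The 250 bases before the RefSeq start of BCL2L11, chr2:111120664-111120913 on the plus strand of GRCh38.p14, are shown for comparison with HRK. Capitals mark the only match to GTAAACA, the FOXO letters, on either strand.
BCL2L11 promoter: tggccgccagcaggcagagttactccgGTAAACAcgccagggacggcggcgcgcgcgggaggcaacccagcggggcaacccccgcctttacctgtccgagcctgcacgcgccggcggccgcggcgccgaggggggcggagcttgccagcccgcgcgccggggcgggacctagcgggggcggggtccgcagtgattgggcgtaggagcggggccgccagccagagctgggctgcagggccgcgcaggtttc
This match begins 223 bases before the start. GENCODE 29 places the first base of BCL2L11 at 111119378, so the whole window lies inside the gene as annotated there. Windows holding these letters make up 2.98% of all 35116. The FOXO letters are the only pattern searched that the BCL2L11 window holds, so that share is no test either.

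BAX, the effector that forms the pore, fell. It had 455 and 432 normalized counts in Ctrl and 265 and 299 without glucose, with no overlap. The mean went from 444 ± 16.6 to 282 ± 23.7 (SD, n = 2), a log2 fold change of -0.65 ± 0.10 (SE, limma adjusted p = 3.5e-04). BAX was called lower in all 10 alternative settings, with log2 fold changes between -0.74 and -0.44 and adjusted p up to 0.033. The 250 bases before its RefSeq start, chr19:48954625-48954874 on the plus strand of GRCh38.p14, are shown because they hold the E-box CACGTG, the letters read by MYC with MAX and by MondoA with MLX, in 4 places. Capitals mark them, and CACGTG reads the same on either strand.
BAX promoter: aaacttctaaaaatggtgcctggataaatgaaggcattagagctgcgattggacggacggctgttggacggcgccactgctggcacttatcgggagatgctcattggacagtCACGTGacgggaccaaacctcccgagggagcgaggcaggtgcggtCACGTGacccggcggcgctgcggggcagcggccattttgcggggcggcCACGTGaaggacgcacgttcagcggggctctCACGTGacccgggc
The matches begin 138, 93, 45 and 14 bases before the start. GENCODE 29 places the first base of BAX at 48954815, so the last of this window is exonic there. At least 1 CACGTG occurs in 6.34% of the 35116 windows, and at least 4 occur in 5 of them (0.0142%), of which the BAX window is 1. The window was picked for these matches, so that share is no test, and the letters say nothing about binding in these cells. In BBC3 a single CACGTG was found, as in 2 of the 5 windows of BID, which overlap each other and may hold the same letters, and a TGANTCA (AP-1, held by 6.57% of windows) in that of BBC3. None of the 15 windows held TTTCCCGC (E2F, 1.39% of windows). Windows were found for 9 of the 10 members, MCL1 having none.

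In all, 3 members rose (MCL1, HRK and BMF), 4 fell (BCL2, BCL2L1, BID and BAX) and 3 did not pass, and all 10 had passed the filter on low values. Of all 27486 genes tested, 35.1% were called, 14.4% as higher and 20.7% as lower. Most members are well expressed, and among 10656 protein-coding genes with a mean of at least 50 normalized counts 66.0% were called, 18.9% as higher and 47.2% as lower. The members' 7 of 10 is near that 66.0%. HRK, BMF and BBC3, however, had means under 50 over all libraries, and HRK and BMF are among the 7 called. Both No glucose libraries lay on one side of both controls for 9 members, against 66.8% of all genes tested. This share was not computed for the coding genes with a mean of at least 50, so no excess among the members can be read from it. The median log2 fold change was -0.08 over the members, 0.04 over all genes tested and -0.20 over those coding genes. By role it was -0.23 over the guardians and 0.47 over the BH3-only genes. The latter lies between PMAIP1 (-0.02) and BBC3 (0.97), neither of which passed. The BH3-only values ran from -1.04 (BID) to 2.25 (HRK), and the positive ones were those of HRK, BMF and BBC3, the members with the fewest reads.

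The count of members called varied with the test. With edgeR, where 37.3% of genes were called, 4 members were higher and 4 lower, BBC3 being the added one. DESeq2, with 26.6% of genes called, had 2 higher and 4 lower, without BMF. Library totals, with 36.1% called, gave 5 higher and 2 lower, since BBC3 and PMAIP1 were added and BCL2 and BCL2L1 lost. In the authors' deposited table the log2 fold changes were 2.31 ± 0.45 for HRK (adjusted p = 2.1e-06), -1.05 ± 0.09 for BID (3.2e-30), -0.66 ± 0.17 for BAX (5.4e-04) and 1.52 ± 0.90 for BMF (0.19), each with its deposited standard error.

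**Figure D2:**
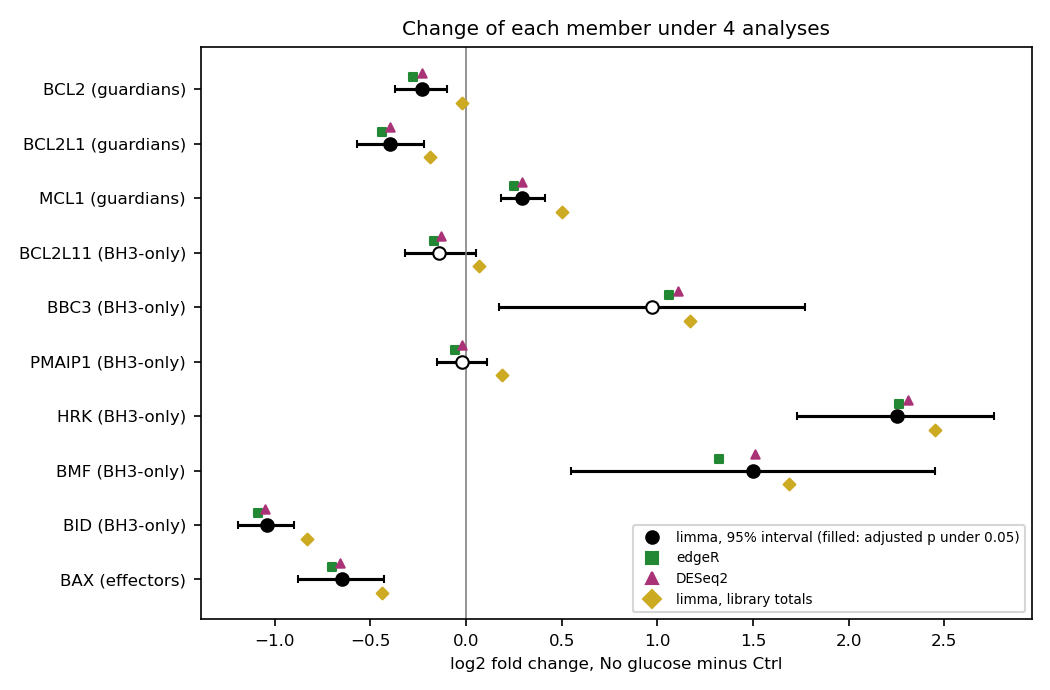
Log2 fold change of each member on the horizontal axis, No glucose minus Ctrl, by limma with its 95% interval (circles, filled where the adjusted p is under 0.05), edgeR, DESeq2 and limma with library totals. HRK at 2.25 is farthest to the right and BID at -1.04 farthest to the left, and library totals move every member to the right.

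Per kilobase of exon, the members spanned 3 orders of magnitude. In Ctrl the order of levels was MCL1 (1729 ± 6.14 normalized counts per kb, SD, n = 2), PMAIP1 (1330 ± 14.3), BID (611 ± 28.5), BCL2L1 (387 ± 9.29), BCL2 (192 ± 0.888), BAX (172 ± 6.40), BCL2L11 (82.9 ± 3.25), BBC3 (5.22 ± 0.250), HRK (2.37 ± 0.0450) and BMF (1.06 ± 0.460). All neighbours in that order differed by more than their SDs, which can understate counting error for BBC3, HRK and BMF. BBC3 and HRK each had 12 reads in CTRL_8, with a counting interval of 8.29 to 28.0 normalized counts (95%, exact Poisson). Their Ctrl means were 16.6 and 16.3 normalized counts, so their order per kb comes from their exon lengths of 3180 and 6853 bases. Without glucose the order was the same down to BCL2L11, but BID (296 ± 6.96) and BCL2L1 (294 ± 25.9) no longer differed beyond their spread. HRK (11.8 ± 1.10) and BBC3 (11.3 ± 5.86) did not either, and BMF stayed lowest at 3.22 ± 0.176. So the level of HRK after its rise was still far under that of PMAIP1 (1310 ± 38.6) or BID. The lengths are unions of all annotated exons. With the principal transcript alone BAX stood at rank 4 in Ctrl, at 560 per kb, ahead of BCL2L1 at 491, and BCL2L11 at 363 ahead of BCL2 at 302.

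MCL1 made up 74.9% of the summed guardian level per kb in Ctrl and 82.3% without glucose, while BCL2L1 went from 16.8% to 11.4% and BCL2 from 8.31% to 6.32%. Among BH3-only genes PMAIP1 went from 65.4% to 76.7% and BID from 30.1% to 17.3%. HRK went from 0.117% to 0.693%, so its rise barely enters the sum. The summed BH3-only level divided by the summed guardian level was 0.884 and 0.878 in Ctrl and 0.662 and 0.664 without glucose, a lower ratio in both deprived libraries. The level of this ratio depends on the length used: with principal transcripts it went from 1.10 ± 0.00631 to 0.803 ± 0.00702 (SD, n = 2). Without BID the ratio went from 0.616 ± 0.00790 to 0.548 ± 0.00326 (SD, n = 2). BAX over the guardians went from 0.0743 ± 0.00270 to 0.0424 ± 0.00427, and with principal transcript lengths from 0.206 ± 0.00742 to 0.119 ± 0.0118. The sums and shares hold the 10 listed members alone. Left out are the BH3-only genes BIK (271 per kb in Ctrl, 210 without glucose) and BAD (87.2, 62.2). The guardian gene BCL2L2 (22.4, 28.3) and the effector gene BAK1 (314, 225) are also left out. These are ratios of RNA levels, given as a description with no test.

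**Figure D3:**
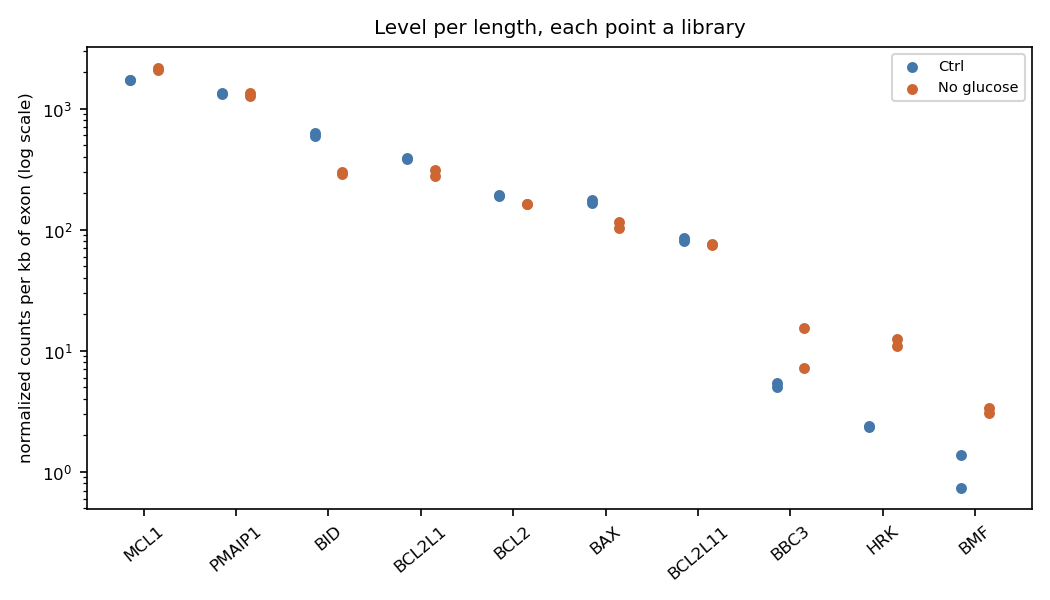
Level of each member in normalized counts per kb of exon, on a log axis, with members ordered by their Ctrl mean. Each point is a library. MCL1 and PMAIP1 lead in both groups, and BBC3, HRK and BMF sit lowest.

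Of 14 other family genes, 13 were tested, 2 rose and 4 fell, against 14.4% higher and 20.7% lower of all genes tested and 18.9% and 47.2% of coding genes with a mean of at least 50. The median log2 fold change was 0.34, the value of BCL2L2, which did not pass. Beside BNIP3 and BNIP3L, the values above it were those of BCL2L15 (0.35), BCL2L14 (0.84), BOK (1.11) and BCL2L2-PABPN1 (1.71), none of them called. BCL2L14, BOK and BCL2L2-PABPN1 had at most 18 reads in any library. BCL2L10 was at or near 0 reads. BNIP3, a mitophagy receptor with a BH3-like stretch, rose from 2311 ± 0.753 to 8129 ± 289 normalized counts (SD, n = 2; limma adjusted p = 6.8e-09), and its relative BNIP3L by 0.76 ± 0.05 on the log2 scale (SE). BAK1, the other main effector, went from 696 ± 15.1 to 499 ± 23.2, a log2 fold change of -0.48 ± 0.08 (SE, limma adjusted p = 7.8e-04). It was the same direction as BAX, and without CTRL_7 the adjusted p was 0.054. BCL2L12 had a log2 fold change of -0.78 ± 0.09 and the BH3-only gene BIK of -0.36 ± 0.11, where the call of BIK was lost without CTRL_7 (0.16) or CTRL_8 (0.26), with DESeq2 (0.15) and with library totals (0.31). BAD, a BH3-only protein tied to glucose metabolism through phosphorylation, was at 171 and 127 in Ctrl and 83.4 and 129 without glucose, and did not pass (limma adjusted p = 0.094). Without CTRL_7 the falls numbered 1 and without CTRL_8 2.

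Of 12 genes for the channel proteins, the released factors and the caspases that cytochrome c sets off, 9 fell and 1 rose. The shares called lower were 20.7% of all genes tested and 47.2% of coding genes with a mean of at least 50, and the list was not tested against them. The median log2 fold change of the 12 genes was -0.54. The channel gene VDAC1 went from 12834 ± 269 to 5898 ± 251 normalized counts (SD, n = 2), which is -1.12 ± 0.05 (SE) on the log2 scale, and VDAC3 changed by -0.61 ± 0.06. CYCS, cytochrome c itself, went from 10605 ± 8.34 to 5450 ± 247 (log2 fold change -0.96 ± 0.05, SE), although its many processed pseudogenes can share its reads. HTRA2, which blocks caspase inhibitors once released, changed by -0.77 ± 0.08. The nuclease gene ENDOG was low, at 22.2 ± 3.06 and 9.46 ± 0.512, with a log2 fold change of -1.15 ± 0.35 whose call was lost under 6 of 10 alternatives. CASP9, the initiator caspase, was the 1 rise, at 0.46 ± 0.15 (limma adjusted p = 0.031), and it was not called without CTRL_7, CTRL_8 or ONG_10 or with DESeq2.

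Among 18 genes known to control the family, 6 rose and 6 fell, with a median of 0.07. That is 12 of 18 called, near the 66.0% of coding genes with a mean of at least 50, against 35.1% of all genes tested. TP73 and FOXO1 in the list are under that mean, and neither was called. JUN, known to drive HRK and BCL2L11 transcription in neurons, went from 1583 ± 59.2 to 5281 ± 633 normalized counts (SD, n = 2), which is 1.73 ± 0.08 (SE) on the log2 scale. DDIT3, the gene of CHOP, rose by 1.32 ± 0.09 on the log2 scale, and its partner ATF4 changed by -0.80 ± 0.05. The glucocorticoid receptor gene NR3C1, through which steroids induce BIM in leukaemia, went from 7640 ± 21.7 to 15376 ± 693, and BAG3, a cochaperone that stabilises guardians, rose by 1.09 ± 0.16. FOXO3 rose by 0.45 ± 0.07 and MARCHF5, a ligase acting on MCL1 and NOXA, by 0.29 ± 0.06, the last not called without CTRL_7 (0.10) or CTRL_8 (0.12). DYNLL1, a light chain that tethers BIM, changed by -0.91 ± 0.05 and E2F1 by -0.77 ± 0.07. With library totals 10 of these genes were higher and 5 lower.

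The death receptor route, which reaches mitochondria through BID, had 5 of 12 genes higher and 2 lower, with a median of -0.07. Of all genes tested 35.1% were called in either direction, and of coding genes with a mean of at least 50, 66.0%. CASP8, the protease that cleaves BID, went from 2628 ± 77.2 to 4500 ± 391 normalized counts (SD, n = 2), which is 0.77 ± 0.07 (SE) on the log2 scale, and its decoy CFLAR from 1475 ± 36.6 to 2459 ± 6.91 (0.74 ± 0.06). The receptor gene TNFRSF10B rose by 0.68 ± 0.16 (limma adjusted p = 0.0064), and was not called with DESeq2 (0.057) or without CTRL_7 (0.065), CTRL_8 (0.078) or ONG_10 (0.063). The ligand gene FASLG rested on 3 reads in Ctrl and 16 without glucose, a ratio of 14.2 with an exact 95% interval of 4.07 to 76.2 for counting error (limma adjusted p = 0.0042, and up to 0.046 under the alternatives; DESeq2 gave it no adjusted p). FAS and TNFRSF1A changed by -0.22 ± 0.07 and -0.26 ± 0.07, and neither was called without CTRL_7 or CTRL_8 or with library totals. In those settings the list had no member called lower.

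Of 18 other genes known as p53 targets, 5 rose and 6 fell, with a median of 0.05. These 11 of 18 are near the 66.0% called among coding genes with a mean of at least 50, and the share of all genes tested was 35.1%. CDKN1A, DRAM1 and PHLDA3 in the list are under that mean, and none of them was called. BTG2, an antiproliferative gene, went from 696 ± 35.0 to 1627 ± 81.9 normalized counts (SD, n = 2), which is 1.22 ± 0.08 (SE) on the log2 scale, TP53INP1 rose by 0.64 ± 0.10, TIGAR by 0.50 ± 0.11 and CCNG1 by 0.24 ± 0.06. AEN changed by -1.02 ± 0.08, FDXR by -1.10 ± 0.21, SESN2 by -0.57 ± 0.09, DDB2 by -0.50 ± 0.07 and RRM2B by -0.45 ± 0.07. FDXR was not called without CTRL_7 (0.053), TIGAR without CTRL_8 (0.11) or ONG_10 (0.051), or CCNG1 without CTRL_7 (0.18) or CTRL_8 (0.17). The rises numbered 3 without CTRL_7 and 2 without CTRL_8.

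**Figure D4:**
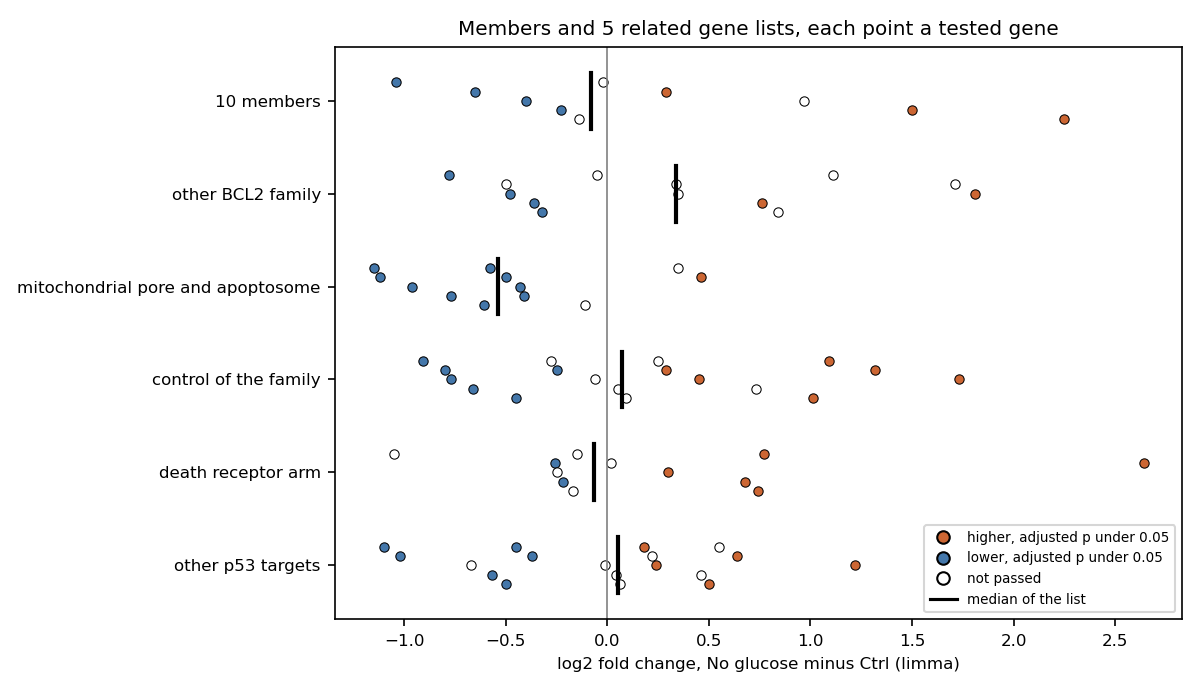
Log2 fold change of each tested gene, No glucose minus Ctrl by limma, on the horizontal axis for the 10 members and the 5 related lists. Filled points passed the threshold and bars are medians. The list of channel proteins, released factors and caspases has its median at -0.54, with 9 of 12 genes called lower.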

How the data were processed

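Total RNA libraries were prepared with a stranded kit and sequenced with single-end reads, per the labels' protocols. Per the submitters' processing notes, STAR 2.6.0c, RSEM 1.3.0 and DESeq2 1.18.1 were used on hg38; the annotation and counting strand are not given in the sources used here. The deposited signal values are normalized counts: whole reads per gene over 1 size factor for each column. The deposited log2 fold changes with their errors, the score (a test statistic) and the p-values are the authors' own comparison.

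Division by the smallest step gave whole reads (within 0.01) for 100% of values above 0, with size factors of 2.91, 0.748, 0.660 and 0.713. Columns named ONG were taken as No glucose, since the table names only that group beside CTRL. The main test, for genes whose mean reached 1, was limma's trend fit (version 3.58.1, R 4.3.3) of log2(normalized count + 1). It was two-sided, p-values were adjusted by Benjamini-Hochberg, and calls needed an adjusted p under 0.05. Fold changes are on that scale, which can understate those of low genes. edgeR 4.0.16 and DESeq2 1.42.0 on the recovered reads, library totals, a pseudocount of 0.5, no filter, a mean of at least 10 and leaving out each library were alternatives. The scripts were tested on simulated data. Lengths, positions and coding sequence came from GENCODE 29 and promoters from RefSeq (GRCh38.p14).

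The members and lists were chosen with earlier results of these data known. All members were named, with their values in every library, and so were list genes that passed and moved by 1 or more on the log2 scale, or were among up to 3 others per direction. Genes named beside these, such as BAD and BCL2L10, were chosen after their values were seen. Intervals on reads cover counting error only.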

Additional observations from a re-analysis of the deposited data

How the results depend on the processing

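HRK, BID and BAX kept their direction and passed the threshold in all 10 other settings run. The counts of members called moved with the setting. With library totals 5 members were higher and 2 lower, and leaving out 1 library gave 1 to 4 higher and 2 to 4 lower. PMAIP1 changed sign with library totals (0.19) and without ONG_10 (0.01; the range leaving out 1 library was -0.05 to 0.01), and BCL2L11 with library totals (0.07). Scaling to equal totals raises the No glucose values against Ctrl, since their normalized totals were lower. These were 28861879 (ONG_9) and 28176499 (ONG_10) against 33215262 (CTRL_7) and 32790013 (CTRL_8). The cause of the lower totals, or of the sign change without ONG_10, was not tested.

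Of all genes, 2436 were higher with DESeq2 and 6104 with library totals, against 3948. Leaving out 1 library gave 2027 to 4172 higher and 3318 to 6387 lower. With library totals 2 of the other family genes were lower, 10 of the controlling genes higher and 0 of the death receptor genes lower. Of the channel, released factor and caspase genes, 2 were higher with library totals and 0 with DESeq2, which called 3 death receptor genes higher. Leaving out 1 library gave 1 to 4 other family genes lower, 0 to 2 genes downstream of the pore higher, 3 to 5 death receptor genes higher, 0 to 3 lower, and 2 to 6 p53 targets higher. A pseudocount of 0.5 changed no call of a named gene.

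The ratio of BH3-only to guardian level without glucose was 0.753 of that in Ctrl. It was 0.710 with summed normalized counts, 0.890 without BID, 0.729 with principal transcript lengths (a setting added after the data were seen), and 0.750 to 0.755 leaving out 1 library. For BAX over the guardians it was 0.570, with 0.579 by principal transcript lengths and 0.530 to 0.611 leaving out 1 library, both also added after the data were seen.

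No paired analysis was possible because the columns carry no replicate number that matches the labels. The precision of BMF, BBC3 and HRK is limited by their 3 to 57 reads per library.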
